A study of Mus musculus with 4 samples.

Results

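Chromatin accessibility was examined at 9 loci that serve stress defense in mouse hematopoietic stem cells (HSCs), namely Foxo1, Foxo3, Txnip, Sod2, Nfe2l2, Hif1a, Trp53, Mt1 and Mt2. A site was counted at a locus when a peak overlapped the annotated gene (GENCODE M21, mm10) or the 20 kb on either side of it. Overlapping peaks of both genotypes were merged, which left 39 distinct regions at these loci among 45475 on the 19 autosomes and X. The Mt1 and Mt2 genes lie side by side and had the same 4 regions, which were counted once.

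ATAC-seq, in which a transposase cuts and tags open DNA, was performed on bone marrow HSCs of adult C57BL/6 mice, with 5000 sorted cells as input. The sort was on lineage-negative, Sca-1-positive, Kit-positive (LSK) cells that were CD150+ CD34- CD48-, while the study's methods for this assay name CD150+ CD48- LSK cells. WT cells carried the floxed Med23 allele (Med23floxp/flowp) with no cre, and KO cells carried the same allele with the Mx1-cre transgene (Mx1-cre;Med23floxp/flowp). Mx1-cre is driven by an interferon-inducible promoter, acts outside blood cells too, and was switched on by repeated poly(I:C) injection, and the sources used here do not state whether the WT donors were injected. Med23 encodes a subunit of Mediator, the complex that bridges transcription factors and RNA polymerase II. Each genotype had 2 samples, but both named the same peak list, so the comparison was between 1 WT list and 1 KO list with no replicate check and no p-value.

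FOXO proteins are transcription factors that move into the nucleus when insulin and growth factor signaling through AKT is low, where they turn on genes for cell cycle arrest and antioxidant defense. HSCs reside in a hypoxic niche and depend on low levels of reactive oxygen species to stay quiescent, and loss of FOXO factors, of Trp53 or of Hif1a is known to disturb their self-renewal. Txnip, Sod2, Nfe2l2 and the metallothioneins act further along the same defense, as a brake on thioredoxin, a mitochondrial superoxide scavenger, the master regulator of antioxidant genes and the metal and radical buffers of the cell.

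There were 37919 peaks in WT and 37639 in KO, with median summit pileups (the number of sequenced fragments stacked at the highest point of a peak) of 18 and 19. Genome-wide backgrounds were 1.19 fragments in WT and 1.13 in KO. Of the HSC marker genes reported here, Kit, Mecom and Hlf had a promoter peak in both lists, while Ly6a, Slamf1 and Procr had none in either. Of the markers of other cells, 0 of 4 T cell genes and 0 of 4 granulocyte or monocyte genes had a promoter peak, against 1 of 4 B cell genes (Ebf1) and 3 of 4 stromal or endothelial genes (Col1a1 and Cxcl12 in both lists, Pecam1 in KO only). Their part in the results was not tested. The Med23 promoter itself was open in both lists, with pileups of 64 in WT and 85 in KO, which does not show whether the floxed segment was deleted.

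For a region with 1 peak in each list, the KO to WT ratio was computed from the summit pileups, each divided by the genome-wide background of its own list, and is given as log2 without a pseudocount. Ranges in parentheses are exact 95% binomial intervals of both pileups and cover counting error only. The median log2 ratio over all 28909 such regions was 0.17, and a region was called higher or lower in KO when it lay at least 1.5-fold from that median, that is above 0.75 or below -0.42. In sorted bulk cells, fewer cells with an open site and a less open site in each cell cannot be told apart.

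Of the 39 regions, 26 (66.7%) were present in both lists, 5 in WT only and 8 in KO only. Among all 45475 regions, 64.8% were present in both, 18.1% were in WT only and 17.2% in KO only, so the shares at the stress loci lay near the background. The 26 shared regions had a median log2 ratio of 0.29, and 16 of them were above 0.17. They ranged from -0.62 at Trp53 to 1.02 at Txnip. Of these, 3 were higher in KO, 1 at Sod2 and 2 at Txnip, and 2 were lower, at Hif1a and Trp53. In 1 of these Txnip regions the WT and KO summits lay 494 bp apart. The background was 7.63% of all shared regions higher and 7.91% lower. The interval lay wholly above the median for 2 of the 26 and wholly below for 2, where 1.91% and 1.54% of all shared regions did so. The KO list covered 27614 bases at these loci and the WT list 24161, a ratio of 1.14, while the ratio over all peaks was 0.985. Covered bases were higher in KO at 8 genes, among which Mt1 and Mt2 share the same covered bases, and lower at Trp53. At Nfe2l2 the difference of 203 bp turned negative under each of the 4 other peak thresholds or flanks tried, and at Hif1a that of 64 bp did so under both other flanks.

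**Figure D1:**
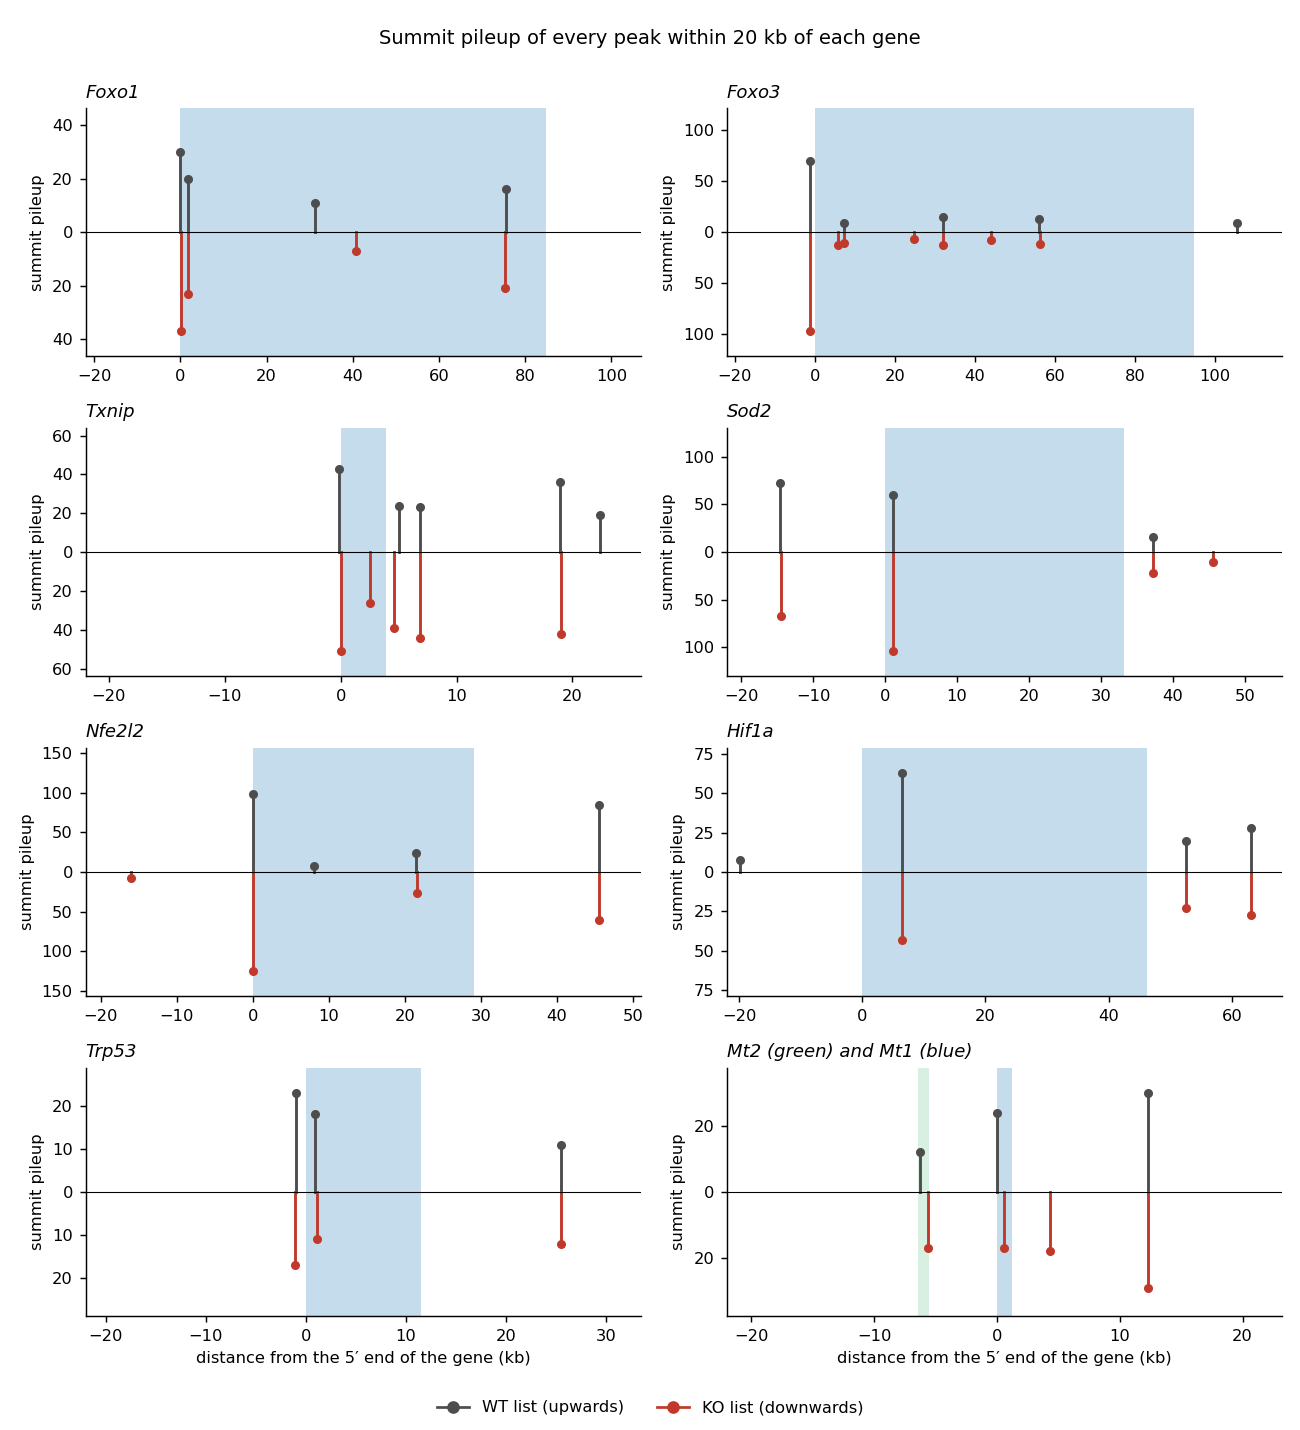
Summit pileup (fragments, WT upwards in grey, KO downwards in red) of every peak at each locus against its distance in kb from the 5′ end of the annotated gene, in the direction of transcription. Shading marks the gene, and Mt2 and Mt1 share a panel measured from Mt1. The tallest WT and KO peaks lie at the start of most genes, and the peak at +2.56 kb inside Txnip is in the KO list alone.

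Foxo1 and Foxo3 encode the FOXO factors best known in HSCs. Foxo1 (ENSMUSG00000044167, chr3:52268336-52353221, + strand) had 5 regions. Its promoter peak, 43 bp past the start site, reached 30 fragments in WT against 37 in KO (log2 ratio 0.39, -0.35 to 1.13). A second peak at 1.82 kb, at the start of the noncoding gene Gm20402, had 20 and 23 (0.29, -0.64 to 1.23). Both KO values were above the WT values by less than counting error.

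Within the body of Foxo1, 3 intronic sites were seen. The site at 75.3 kb was in both lists, with 16 in WT and 21 in KO (0.48, -0.53 to 1.51). The site at 31.3 kb was in WT only, with a pileup of 11 and a −log10 q, the peak caller's significance of a peak against local background, of 5.80. The site at 40.7 kb was in KO only with a pileup of 7, close to the lowest pileup of 6 among all regions in a single list.

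Foxo3 (ENSMUSG00000048756, chr10:42181841-42276755, - strand) had 8 regions, the most of the 9 genes. The peak over its 4 annotated start sites was about 2 kb wide and held 70 fragments in WT and 97 in KO at the summit, with a log2 ratio of 0.56 (0.10 to 1.02) that stayed within 1.5-fold of the median. Its summits lay at -1115 and -1086 bp, just outside the 1000 bp that defined a promoter here, so it was counted as intergenic. Measured instead as the peak caller's fold enrichment over local background, this peak had 6.49 and 12, a log2 ratio of 0.89, and passed 1.5-fold.

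In Foxo3 introns lay 6 regions, and 3 of them were in both lists. Their pileups were 13 and 12 at 56.0 kb, 15 and 13 at 32.0 kb and 9 and 11 at 7.24 kb, in WT and KO, and none passed 1.5-fold. The other 3 intronic sites, at 44.1, 24.6 and 5.75 kb, were in KO only with pileups of 8, 7 and 13. All 3 had a −log10 q under 5. A further site, 105 kb from the start site and past the end of the gene, was in WT only with a pileup of 9. Motifs were searched around the higher summit of each region. The KO-only site at 24.6 kb was the only one of the 39 regions with a FOXO motif (GTAAACA, either strand) within 100 bp of that summit. Over whole regions, 5 of the 39 held the motif. A FOXO motif was found near the summit of 2.80% of all regions away from promoters. The sequence of this 201-base window (GRCm38.p6, chr10:42251949-42252149, + strand) is given with the motif in capitals, here on the opposite strand:
Foxo3 intronic site at 24.6 kb: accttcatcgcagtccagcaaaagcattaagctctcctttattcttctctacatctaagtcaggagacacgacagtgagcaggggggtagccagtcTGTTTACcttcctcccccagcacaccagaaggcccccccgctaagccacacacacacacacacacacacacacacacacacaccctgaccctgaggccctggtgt

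Txnip encodes the thioredoxin-interacting protein, which binds and inhibits thioredoxin and limits glucose uptake, and is a known FOXO target. The gene (ENSMUSG00000038393, chr3:96557957-96561883, + strand) is short, but its window held 6 regions. The promoter peak had 43 fragments in WT and 51 in KO (log2 ratio 0.33, -0.28 to 0.95). Relative to the nearer of its 2 start sites, the summit lay at -129 bp for WT and at -1 bp for KO. The 250 bases before the RefSeq start site of Txnip (chr3:96557707-96557956, + strand) hold a FOXO motif 121 bases upstream. It is shown in capitals because Txnip was the sole gene of the 9 with this motif in its promoter. The motif lies within 100 bp of the WT summit, but the search near summits used the higher KO summit. This motif occurs in 3.19% of 32619 mouse promoters of the same length:
Txnip promoter: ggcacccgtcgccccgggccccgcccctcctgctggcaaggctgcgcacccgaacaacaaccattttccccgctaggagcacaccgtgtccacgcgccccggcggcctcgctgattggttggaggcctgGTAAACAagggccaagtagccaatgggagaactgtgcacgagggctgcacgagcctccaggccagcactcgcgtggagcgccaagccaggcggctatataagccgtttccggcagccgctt

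The larger differences at Txnip lay downstream. A site at 6.88 kb had 23 fragments in WT and 44 in KO, which was 2.03-fold (log2 1.02, 0.26 to 1.82) and the highest ratio of the 26 shared regions. A site at 4.56 kb had 24 in WT and 39 in KO (0.79, 0.02 to 1.58). Its WT summit lay at 5058 bp and its KO summit at 4564 bp, 494 bp apart. Its ratio thus compares different positions, and no direction at a single position can be read from it. Both sites lie in Gm15441, an annotated gene that overlaps Txnip, and the ratios of both were past the 1.5-fold limit for higher in KO. Another site, at 2.56 kb in an exon of Txnip, was in KO only, with 26 fragments over a local background of 10.3 and a −log10 q of 2.79. The local background at these sites was itself high, 8.07 in WT and 9.97 in KO at 4.56 kb and 6.03 and 6.87 at 6.88 kb, so that the fold enrichment over local background differed less, with log2 ratios of 0.40 and 0.74, neither past 1.5-fold.

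Further downstream, the promoter of Gm16253 at 19 kb had 36 and 42 fragments (0.31, -0.37 to 0.99). The last site, at 22.4 kb in Gm16253 and Polr3gl, a subunit gene of RNA polymerase III, was in WT only with a pileup of 19 and a −log10 q of 6.80. Peaks covered 2942 bases of the Txnip window in WT and 4468 in KO. The window around the summit at 6.88 kb (chr3:96564736-96564936, + strand) is shown as the site with the highest ratio. None of the 11 motifs searched occurs in it, so it has no capitals:
Txnip site at 6.88 kb: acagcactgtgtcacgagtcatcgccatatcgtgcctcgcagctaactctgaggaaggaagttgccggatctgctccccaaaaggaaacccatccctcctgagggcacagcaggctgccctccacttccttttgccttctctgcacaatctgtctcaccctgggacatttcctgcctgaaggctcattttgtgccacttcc

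Sod2 encodes manganese superoxide dismutase, the enzyme that clears superoxide in mitochondria. Its promoter (gene ENSMUSG00000006818, chr17:13006846-13040063, + strand) had the highest ratio of the promoter regions of the 9 genes. Fragments at its summit numbered 60 in WT against 104 in KO, a 1.84-fold difference (log2 0.88, 0.41 to 1.36), with the summits only 2 bp apart and the interval wholly above the median. The WT peak was higher than 80.8% of the 12610 promoter peaks in both lists, and the KO peak higher than 94.5%. Local background hardly differed, at 5.39 and 5.26, and the fold enrichment went from 9.55 to 16.8 (log2 0.81), which was 0.55 above the median of that measure and so just short of 1.5-fold. The 250 bases before the RefSeq start (chr17:13007589-13007838, + strand) hold 4 GC boxes (GGGCGG, the site of SP1-type factors), given in capitals. GC boxes occur in 33.0% of mouse promoters:
Sod2 promoter: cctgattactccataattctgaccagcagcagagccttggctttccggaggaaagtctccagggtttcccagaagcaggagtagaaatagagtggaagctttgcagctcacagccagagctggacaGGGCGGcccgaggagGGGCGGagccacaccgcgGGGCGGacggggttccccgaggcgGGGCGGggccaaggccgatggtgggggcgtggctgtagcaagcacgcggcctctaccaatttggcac

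The other sites of the Sod2 window stayed within 1.5-fold of the median or were in 1 list. At -15.5 kb, the promoter of Wtap, a subunit of the RNA methylation complex, had 73 fragments in WT and 67 in KO (-0.04, -0.54 to 0.46). An intergenic site at 36.3 kb had 16 and 22 (0.55, -0.45 to 1.57). The Gpr31b promoter at 44.5 kb was in KO only with a pileup of 10 and a −log10 q of 5.13. No peak was called in an intron of Sod2.

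Nfe2l2 encodes NRF2, the factor that turns on antioxidant and detoxifying genes once it escapes KEAP1. The gene (ENSMUSG00000015839, chr2:75675513-75704641, - strand) had the tallest promoter peak of the 9, with 98 fragments in WT and 125 in KO (0.44, 0.04 to 0.83). It was above 94.4% of promoter peaks in WT and above 96.8% in KO, and the ratio stayed within 1.5-fold of the median. The intronic site at 21.5 kb had 24 and 27 (0.26, -0.59 to 1.11), and a smaller intronic site at 8.12 kb was in WT only with a pileup of 8. At the far end of the window, 45.5 kb from the start site, the promoter of Hnrnpa3, an RNA-binding protein gene, had 84 fragments in WT and 61 in KO (-0.38, -0.88 to 0.12). This interval lay below the median of all shared regions but held 0.09, that of promoter regions alone, and the ratio itself stayed within 1.5-fold. By fold enrichment over local background the sign turned, with 10.9 in WT and 13 in KO (log2 0.25). That value lay near the median of all shared regions by this measure, 0.26. An intergenic site at -16 kb was in KO only with a pileup of 7.

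Hif1a encodes the oxygen-sensitive subunit of hypoxia-inducible factor. Its annotation (ENSMUSG00000021109, chr12:73901375-73947530, + strand) has 2 start sites. The upstream one, at position 73901375, was in no peak of either list, and the one at 73907904 was in a peak of both. That promoter peak had 63 fragments in WT and 43 in KO (log2 ratio -0.47, -1.06 to 0.12). Relative to the median of all shared regions, it was lower in KO by more than 1.5-fold, with the interval wholly below that median. Against 0.09, the median of promoter regions alone, it stayed within 1.5-fold and its interval held that value. It was higher than 82.5% of promoter peaks in WT and than 64.7% in KO. The local background was lower in KO as well, at 4.23 and 2.86, and the fold enrichments of 12.2 and 11.4 differed little (log2 -0.10).

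The 250 bases before the RefSeq start of Hif1a (chr12:73907617-73907866, + strand) hold 3 hypoxia response motifs (HRE, ACGTG), of which a pair overlap in 1 E-box (CACGTG). They are given in capitals because HIF-1 binds this motif. HREs occur in 16.7% of mouse promoters and E-boxes in 6.06%:
Hif1a promoter: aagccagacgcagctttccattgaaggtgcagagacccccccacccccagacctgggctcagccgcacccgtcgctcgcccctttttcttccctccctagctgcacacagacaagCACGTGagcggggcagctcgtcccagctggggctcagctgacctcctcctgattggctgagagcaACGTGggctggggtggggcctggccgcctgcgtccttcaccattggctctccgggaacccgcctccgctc

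Beyond the Hif1a promoter, no intronic peak was called. A site at 46.1 kb, in Gm49321, had 20 and 23 fragments (0.29, -0.64 to 1.23), and the promoter of Snapc1, which serves small nuclear RNA transcription, had 28 and 27 at 56.6 kb (0.03, -0.79 to 0.85). The site nearest to the edge of the 20 kb limit was a WT-only peak of 8 fragments 19665 bp from Hif1a. The nearest peaks left out were both at Foxo1, a WT-only peak of 8 fragments 24269 bp away and a KO-only peak of 13 fragments 24912 bp away.

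Trp53 encodes p53, which arrests or kills cells with damaged DNA. The gene (ENSMUSG00000059552, chr11:69580359-69591873, + strand) was the sole one of the 9 with fewer covered bases in KO, at 2577 in WT and 880 in KO. With peaks of a −log10 q of at least 5 alone, the KO minus WT difference was -2059 bp. No peak of either list in this window reached 10, so that threshold left nothing to compare. Within 1000 bp of its start sites lay 2 regions. The upstream one, shared with the promoter of Wrap53, which is transcribed from the opposite strand, had 23 fragments in WT and 17 in KO (-0.35, -1.35 to 0.62). The WT peak there was 1569 bp wide and covered both Trp53 start sites, whereas the KO peak was 254 bp wide and covered neither. The summits of the 2 peaks lay at -961 and -1044 bp. By fold enrichment over local background the sign turned, with 5.02 in WT and 6.03 in KO (log2 0.26). That value equalled the median of all shared regions by this measure, 0.26.

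The other region had its WT summit 848 bp and its KO summit 1073 bp past the start site, with 18 and 11 fragments (-0.62, -1.85 to 0.54), and it was lower in KO by more than 1.5-fold relative to the median. Its interval held the median. Local backgrounds were 3.85 and 2.08, and the fold enrichments were 3.92 and 3.90. Both regions were among the lower promoter peaks, with 32.3% and 20.4% of promoter peaks below them in WT and 19% and 4.85% in KO. The remaining region, the promoter of Atp1b2 at 25.5 kb, had 11 and 12 fragments (0.21, -1.10 to 1.53). The 250 bases before the Trp53 start (chr11:69580109-69580358, + strand), which the WT peak covered and no KO peak did, are shown with their match to the p53 element (one unit of the paired p53 motif) in capitals. This element occurs in 7.12% of mouse promoters:
Trp53 promoter: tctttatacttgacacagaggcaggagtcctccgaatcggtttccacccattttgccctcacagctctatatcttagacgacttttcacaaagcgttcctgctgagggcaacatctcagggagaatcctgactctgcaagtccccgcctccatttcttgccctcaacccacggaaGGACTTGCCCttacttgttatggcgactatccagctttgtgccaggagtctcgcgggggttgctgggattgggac

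Mt1 and Mt2 encode metallothioneins, small cysteine-rich proteins that bind zinc, cadmium and copper and quench radicals, and their transcription answers to the metal sensor MTF1. Mt2 (ENSMUSG00000031762, chr8:94172664-94173568, + strand) lies just upstream of Mt1 (ENSMUSG00000031765, chr8:94179082-94180327, + strand). The Mt2 promoter peak had 12 fragments in WT and 17 in KO (0.59, -0.56 to 1.79), with summits 703 bp apart. From the nearest start site, the WT summit lay at -71 bp and the KO summit at 632 bp, near the end of the 0.905 kb gene. The Mt1 promoter peak had 24 in WT and 17 in KO (-0.41, -1.40 to 0.54), with summits 577 bp apart. The ratios of the neighboring genes had opposite signs, and neither passed 1.5-fold. Each set a WT summit near a start site against a KO summit inside the gene, so no direction at the promoters can be read from them.

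Past Mt1, a peak at 4.15 kb, at the start of the predicted gene Gm39228, was in KO only with a pileup of 18 and a −log10 q of 7.35. The intergenic site at 12.2 kb had 30 and 29 fragments (0.04, -0.75 to 0.82) and was the tallest of the cluster in both lists. Metal response elements (MRE, TGCACNC or TGCGCNC, either strand) stood within 100 bp of the higher summit of 3 of the 4 regions of this cluster. They occur near 29.8% of all promoter summits and 13.3% of other summits, and in 21.5% of 32619 mouse promoters of 250 bases. The region without an MRE there was that of the Mt2 promoter peak, whose higher summit lay inside the gene. The KO-only site had 6 of them (chr8:94183290-94183490, + strand), a pair of which overlap, and the 250 bases before the RefSeq start of Mt2 (chr8:94172368-94172617, + strand) had 3. Both sequences are given with the MREs in capitals:
Mt1 site at 4.15 kb: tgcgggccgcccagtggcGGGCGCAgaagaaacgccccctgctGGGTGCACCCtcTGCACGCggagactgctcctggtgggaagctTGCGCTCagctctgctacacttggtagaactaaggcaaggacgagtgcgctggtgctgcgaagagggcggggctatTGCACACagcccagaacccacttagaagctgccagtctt
Mt2 promoter: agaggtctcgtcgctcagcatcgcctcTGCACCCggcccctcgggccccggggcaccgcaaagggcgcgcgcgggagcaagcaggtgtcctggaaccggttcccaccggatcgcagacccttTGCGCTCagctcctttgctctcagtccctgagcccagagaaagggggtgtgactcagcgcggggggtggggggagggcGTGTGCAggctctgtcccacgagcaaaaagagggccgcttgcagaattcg

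Promoter and intronic sites were then compared between the lists. The 9 regions with a summit near a start site of one of the 9 genes, 2 of them at Trp53 and none at Foxo3, were all in both lists. Among all 15053 promoter regions, 7.45% were in WT only and 6.52% in KO only. Their median log2 ratio was 0.33, that of all promoter regions 0.09. Of the 9, 1 (Sod2) was higher in KO and 2 (Hif1a and a Trp53 region) were lower, where 3.74% of all promoter regions were higher and 7.95% lower. Foxo1, Txnip, Nfe2l2 and Mt2 had ratios from 0.33 to 0.59 and Mt1 and the other Trp53 region -0.41 and -0.35, all within 1.5-fold of the median. The Mt1 and Mt2 ratios compare summits 577 and 703 bp apart and give no direction at these promoters.

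**Figure D2:**
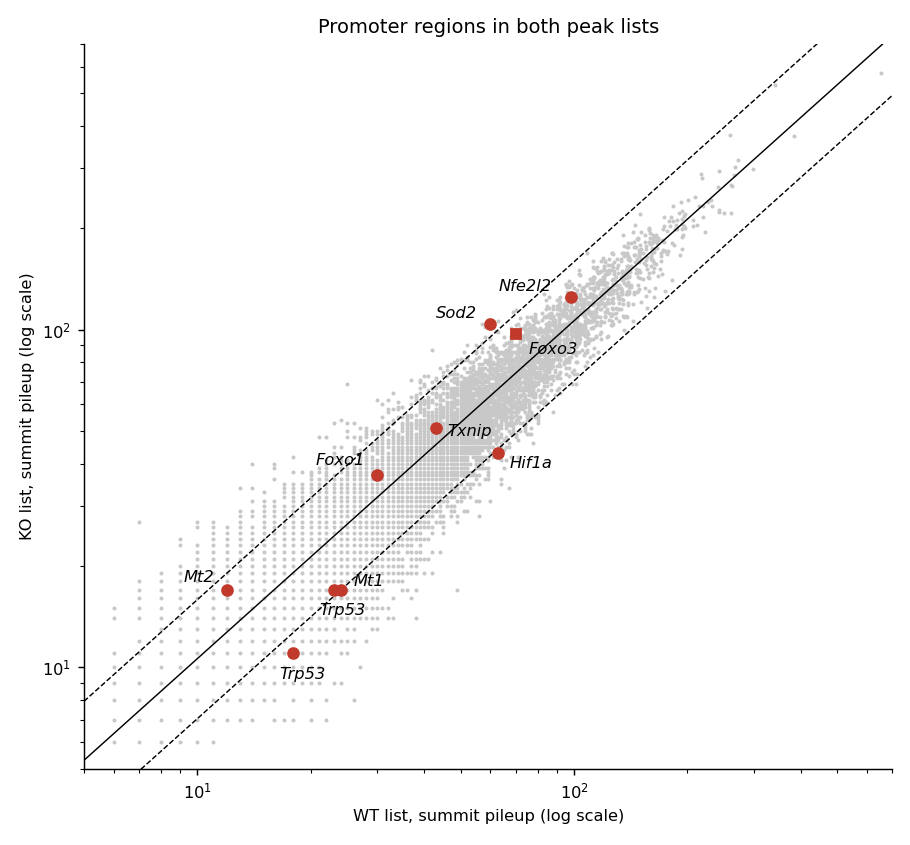
WT against KO summit pileup (fragments, both axes on a log scale) of the 12610 promoter regions with 1 peak in each list (grey) and of the promoter regions of the 9 genes (red circles). The square is the Foxo3 start region, the solid line the median ratio of all shared regions and the dashed lines 1.5-fold from it. Sod2 lies above the upper line, and Hif1a and the lower Trp53 point lie below the lower line.

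Of 11 regions in introns of these genes, 5 were in both lists, 2 in WT only and 4 in KO only. Across the genome, 22.7% of 16336 intronic regions were in WT only and 23.2% in KO only. All 11 lay in Foxo1, Foxo3 or Nfe2l2. The 5 shared ones had a median log2 ratio of 0.26, near the 0.22 of all intronic regions, and ranged from -0.12 to 0.48. None was past 1.5-fold in either direction, where 10.6% of all shared intronic regions were higher and 7.61% lower. Their pileups of 9 to 24 in WT were small, so that the interval of every one of the 5 was wider than the 1.5-fold limits.

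The regions seen in 1 list had low pileups, as they did genome-wide. The 5 WT-only regions had a median pileup of 9, as did the 8 KO-only regions, against 24.0 in WT and 27.0 in KO for shared regions. Over all regions the medians were 10 in WT only and 11 in KO only. A −log10 q of 5 was reached by 2 of the 5 and by 2 of the 8, where 33.6% of all WT-only and 53.4% of all KO-only regions reached it. At this depth a site in a single list may lie just under the caller's threshold in the other, so neither a loss nor a gain was detectable from it.

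**Figure D3:**
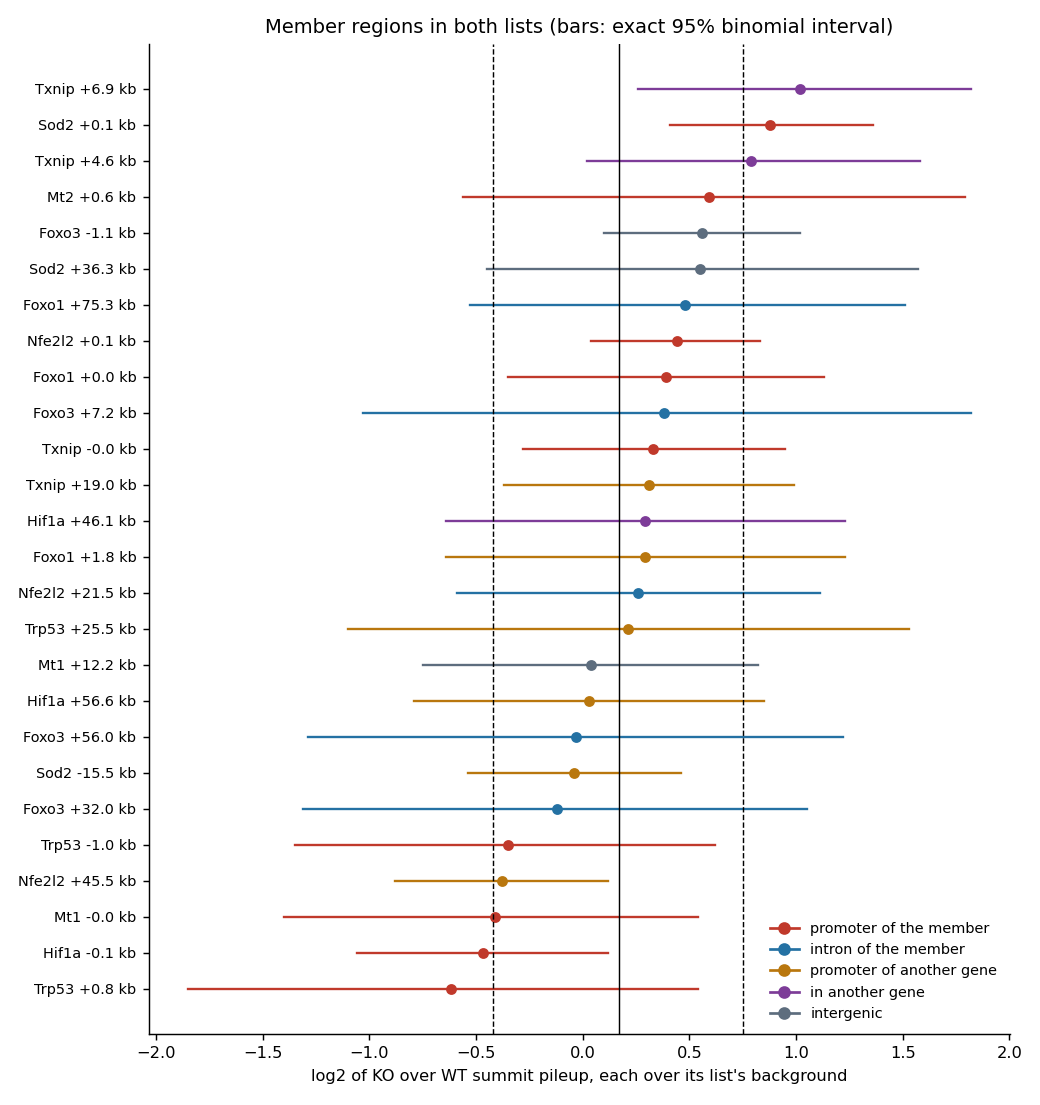
Log2 ratio of KO to WT summit pileup (points) with its exact 95% binomial interval (bars) for the 26 regions in both lists, labelled by gene and distance in kb from the nearest start site and colored by the kind of site. The solid line is the median of all shared regions (0.17) and the dashed lines are 1.5-fold from it. The intervals of the Txnip site at 6.88 kb and the Sod2 promoter lie above the solid line, those of the Hif1a promoter and the Hnrnpa3 promoter in the Nfe2l2 window below it.

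The promoters of 88 further genes of the same pathways were examined in 7 lists. A promoter region was found for 85 of them, not for Sod3, Mt3 and Mt4. Of these, 82 (96.5%) were in both lists, 2 in WT only and 1 in KO only. Among all 15053 promoter regions, 86.0% were in both lists, 7.45% in WT only and 6.52% in KO only. The 79 with 1 peak in each list had a median log2 ratio of 0.11, against 0.09 for all promoter regions. Of these, 2 were higher in KO and 5 lower, where 3.74% of all promoter regions were higher and 7.95% lower.

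The 2 higher ones were Txnrd1 and Txnrd2, the thioredoxin reductases of cytosol and mitochondria, in the list of arrestin domain relatives of Txnip and of thioredoxin. Txnrd1 had 37 fragments in WT and 60 in KO (0.78, 0.17 to 1.42) and Txnrd2 10 and 17 (0.85, -0.36 to 2.14). Txnrd1 had 2 promoter regions, and its values are those of 1 of them. The interval of Txnrd1 lay above the median and that of Txnrd2 held it. The other 7 shared promoters of this list stayed within 1.5-fold, with a list median of 0.22, and Arrdc4, an alpha-arrestin gene controlled like Txnip by glucose, was the tallest with 193 and 199 (0.13). Mlx, which partners the glucose sensors, had its promoter peak in WT only, with a pileup of 10 and a −log10 q of 1.99.

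Among 19 FOXO partners and targets, all were in both lists, with a median of 0.11. Bcl6, a transcriptional repressor, had 37 fragments in WT and 22 in KO (-0.66, -1.50 to 0.14), and Cited2, a CBP/p300-binding coregulator needed by HSCs, had 101 and 69 (-0.46, -0.93 to -0.01). Both were lower in KO with intervals below the median of all shared regions. Against 0.09, the median of promoter regions alone, Cited2 stayed within 1.5-fold, and the interval of Bcl6 held that value. The other 17 stayed within 1.5-fold, among them Sesn3, a sestrin gene and the tallest of the list, with 149 and 168 (0.26).

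In the hypoxia list, 2 of 13 promoters were lower in KO (7.95% of all promoter regions were) and the median was -0.02, with 6 of the 13 above 0. Pdk1, the kinase that shuts pyruvate out of mitochondria, had 44 and 28 fragments (-0.57, -1.30 to 0.15), and Vegfa, the angiogenic growth factor, had 33 and 22 (-0.50, -1.35 to 0.32). The interval of Pdk1 lay below the median of all shared regions and that of Vegfa held it. Both intervals held 0.09, the median of promoter regions alone. Bnip3, a mitophagy gene and the tallest of the list, had 82 and 91 (0.24).

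In the p53 list, Phlda3, a p53-induced inhibitor of AKT, was lower in KO with 18 and 12 fragments (-0.50, -1.69 to 0.63), and the median of 11 promoters was 0.03. The promoter of Bax, which opens the mitochondrial membrane in apoptosis, was in WT only with a pileup of 14 and a −log10 q of 8.76. That of Cdkn1a, the p21 cell cycle inhibitor, was in KO only with a pileup of 10 and a −log10 q of 3.49. Ccng1 was the tallest with 112 and 139 (0.40).

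The other 3 lists held no promoter past 1.5-fold. Their medians were 0.23 for 9 superoxide and peroxide enzymes, 0.13 for 14 genes of the NRF2 pathway and -0.07 for 4 genes of metal response. By the sum of both pileups, the measure of tallest promoters throughout these lists, they were led by Prdx5, a peroxiredoxin gene, with 59 and 61 fragments (0.13), Bach1, a repressor of NRF2 targets, with 95 and 74 (-0.27), and Slc39a10, a zinc importer gene, with 139 and 127 (-0.04).

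**Figure D4:**
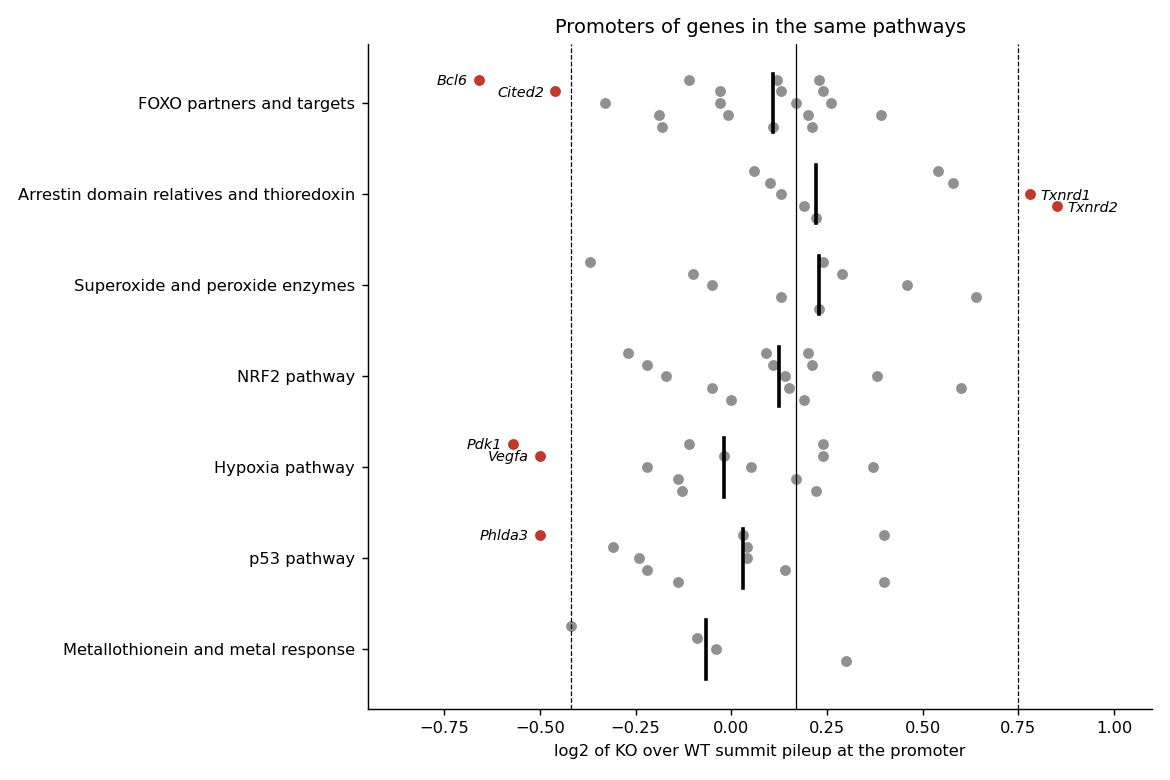
Log2 ratio of KO to WT summit pileup at the promoters of the pathway genes, by list (points, with named red points past 1.5-fold), with the median of each list (thick bar). The solid line is the median of all shared regions (0.17) and the dashed lines are 1.5-fold from it. Txnrd1 and Txnrd2 lie to the right of the limits, and Bcl6, Cited2, Pdk1, Vegfa and Phlda3 to the left.

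The base composition of the 39 regions was near that of their kind. Within 100 bp of the higher summit of each region, the 17 that were a promoter of any gene had a median GC content of 63.2%. All promoter regions had 64.2%. The 22 away from promoters had 53.5%, against 49.3% for all such regions. The Sod2 and Hif1a promoters, which lay on opposite sides of the median ratio, had 70.6% and 71.1% GC.

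Motifs were counted on both strands in the same windows, as matches to short letters and not as bound sites. GC boxes were found in 11 of the 17 promoter regions (64.7%, against 53.8% of all promoter regions) and MREs in 7 (41.2%, against 29.8%). HREs were found in 4 of them (23.5%, against 18.3%) and ETS motifs (CCGGAA) in 2 (11.8%, against 18.9%). Away from promoters, RUNX motifs (TGTGGT) were found in 6 of 22 regions (27.3%, against 26.0%), and AP-1 (TGANTCA) and GATA motifs (AGATAA) in 4 each (18.2%, against 10.3% and 11.6%). HREs and GC boxes were each found in 1 of the 22 (4.55%, against 11.5% and 9.05%). The region with the GC box was the Foxo3 start region, whose summits fell just outside the promoter limit. All these shares came from few regions.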

How the data were processed

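ATAC-seq was analysed from 4 samples, 2 per genotype, whose labels name 1 peak list per genotype. Per the labels and the study's methods, the authors used Trim Galore for trimming, Bowtie2 for alignment to mm10, Picard to discard duplicates and mitochondrial reads, and MACS2 (--nomodel) for peak calling; tool versions are not given in the sources used here, and whether the reads of both samples were pooled is not stated. The deposited lists give each peak's fold enrichment (a ratio of summit pileup to local background), its −log10 p-value and −log10 q-value and a display score of the authors that was not used. The pileup and local background of each peak were recovered from the fold enrichment and −log10 p, with a whole pileup for 99.99% of peaks in each list (tolerance 0.001), after a check on simulated data.

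Peaks overlapping by 1 bp were merged. Promoters had a summit within 1000 bp of a start site in GENCODE M21. Motifs were searched in GRCm38.p6, the same build as mm10, and in RefSeq promoters, present for all 9 genes. Genes named were all 9 with their promoters, their highest other region, regions past 1.5-fold, regions of 1 list whose −log10 q was 5 or more, and pathway promoters past 1.5-fold, in 1 list with that −log10 q, or highest in summed pileup of their list. Mlx and Cdkn1a, and the regions of the 9 genes outside this rule that are given with values, were added after their values were seen. The genes, lists and motifs were chosen with earlier results of these data known. Python 3.11.15, numpy 2.4.6 and scipy 1.17.1 were used. With 1 list per genotype, no test was run. Intervals cover counting error only. Part of the marker genes checked are not reported here.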

Additional observations from a re-analysis of the deposited data

How the results depend on the processing

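The 5 regions past 1.5-fold at Sod2, Txnip, Hif1a and Trp53 stayed past it with raw pileup and kept the sign of their ratio with fold enrichment over local background, but none stayed past 1.5-fold with the latter, and the Trp53 ratio became -0.01. Of all 26 shared regions, the log2 ratio turned its sign at 5 with fold enrichment and at 2 with raw pileup. The former include the upstream Trp53 region (0.26) and the Hnrnpa3 promoter (0.25), which lay at or near the median of that measure. The median of all shared regions was 0.17 in the main measure, 0.08 with raw pileup and 0.26 with fold enrichment. By fold enrichment, 0 promoters of the 9 genes were higher and 0 lower. The median of these promoters was then 0.29, against 0.26 for all shared regions, where the main measure had 0.33 against 0.17. The number lower was 1 with promoters within 500 bp, and 1 with peaks of a −log10 q of at least 5 or at least 10. With promoters within 500 bp, 1 intronic region was lower, the Trp53 region that then counts as intronic. For the pathway promoters, the median log2 ratio was 0.02 with raw pileup and 0.33 with fold enrichment, which gave 1 higher and 1 lower. Relative to the median of all shared regions, it was -0.06 in the main measure, -0.06 with raw pileup and 0.07 with fold enrichment. A −log10 q of at least 5 left 1 higher, and a −log10 q of at least 10 left 1 higher and 3 lower. Counting the Foxo3 start region as a promoter, a choice made after seeing the data, gave a promoter median of 0.36. Regions in both lists numbered 22 when the peaks had to overlap by 50% of both, without the upstream Trp53 region. The regions in WT only and KO only, 5 and 8 in the main count, were 3 and 3 once the −log10 q had to reach 5, 1 and 4 once it had to reach 10, and those in WT only were 2 with a flank of 10 kb and 8 with 50 kb. The KO minus WT difference in covered bases turned from 203 bp to between -407 and -70 bp at Nfe2l2 under 4 alternatives. At Hif1a it turned from 64 to -142 and -544 bp with flanks of 10 and 50 kb. At Trp53 it went from -1697 to -2059 bp once the −log10 q had to reach 5, and no peak there reached 10. Motif counts depended on the window, with MREs in 5 of the 39 regions within 50 bp and in 23 over whole regions. The cause of these shifts was not tested.

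No paired analysis was possible because there was a single list for WT and a single one for KO, with no replicate numbers in them, and leaving out a replicate could not be run for the same reason. Small pileups limit the precision of each ratio.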
